A study of Mus musculus with 8 samples.

Results

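Liver gene expression was compared between mice given the citrus flavonoid sudachitin and mice given vehicle, over daytime and night-time samples together. All 8 libraries of the series entered this comparison, 4 from sudachitin-treated and 4 from control livers, and time of day was a term of the model, so that each treated group was set against the controls of its own time. The mice were male C57BL/6J, bought at 4 weeks of age and later kept on a high-fat diet with 45% of calories from fat. Gavage took place every other day between zeitgeber times 8 and 10 (ZT, hours after lights on), with PBS in the control cohort of 11 mice and with 100 mg of sudachitin per kg in the treated cohort of 12 mice. Livers were taken at 30 weeks of age, and each of the 4 groups (control ZT6, control ZT18, sudachitin ZT6, sudachitin ZT18) is represented by 2 mice. All animals therefore share the diet, the sex and the strain, and there is no group on standard chow. The title of the series asks about the circadian clock, energy metabolism and liver physiology.

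Sudachitin is a polymethoxyflavone, a flavonoid carrying several methoxy groups, found in the peel of the sudachi citrus fruit. The related compound nobiletin is known to act on the ROR nuclear receptors, which drive transcription of clock genes and are opposed by the REV-ERB repressors. In liver, the clock, feeding and the nuclear receptors set the daily course of lipid, sugar and bile acid metabolism. The liver also makes most plasma proteins, including the acute phase proteins, which hepatocytes secrete after interleukin-1 and interleukin-6 signals, and the complement and clotting factors. Interferons act on hepatocytes and on the resident macrophages (Kupffer cells) alike, through STAT and IRF transcription factors.

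The libraries held 13914116 to 17759630.5 counts in exons, and 14506 of the 55421 transcripts of the table were tested. Replicate 1 of control ZT18 stood apart: its value was an extreme of the 8 in 38.2% of tested transcripts, against 17.4% to 27.7% for each other library, so for many results the value without it is given as well. Hepatocyte markers summed to 113300 to 126700 CPM (counts relative to library size, scaled between libraries with TMM factors) in control and 106200 to 123400 CPM in sudachitin livers, and 9 of 15 adipocyte and pancreas markers were at 0 in all 8 libraries. The titles carry codes whose meaning is not given in the sources used here. No code start occurs in more than 1 group. Both control ZT6 mice share a code start, as do both sudachitin ZT6 mice, while each ZT18 mouse has its own. Whatever the starts mark is therefore inseparable from treatment, and from time of day as well. If a start marks a shared unit, the replicates within each ZT6 group are not independent, which was not tested.

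Each gene is described by its CPM in every liver, the fitted log2 difference of sudachitin minus control over both times with its standard error (SE), and whether the 4 sudachitin values and the 4 control values overlap. Across all tested transcripts, 3 passed the threshold of an adjusted p of 0.05 (edgeR quasi-likelihood test with Benjamini-Hochberg adjustment), which is 0.0207% of those tested. All 3 were higher in sudachitin livers, and none (0%) was lower. At an unadjusted p under 0.05 there were 310 higher transcripts (2.14%) and 330 lower ones (2.27%). Both directions together made 4.41%. At the same adjusted threshold DESeq2 called 11 higher and 2 lower. The median log2 difference over all tested transcripts was -0.000828, with 49.7% above 0 and 50.3% below. The plot of difference against expression shows how few transcripts leave this centre.

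**Figure D1:**
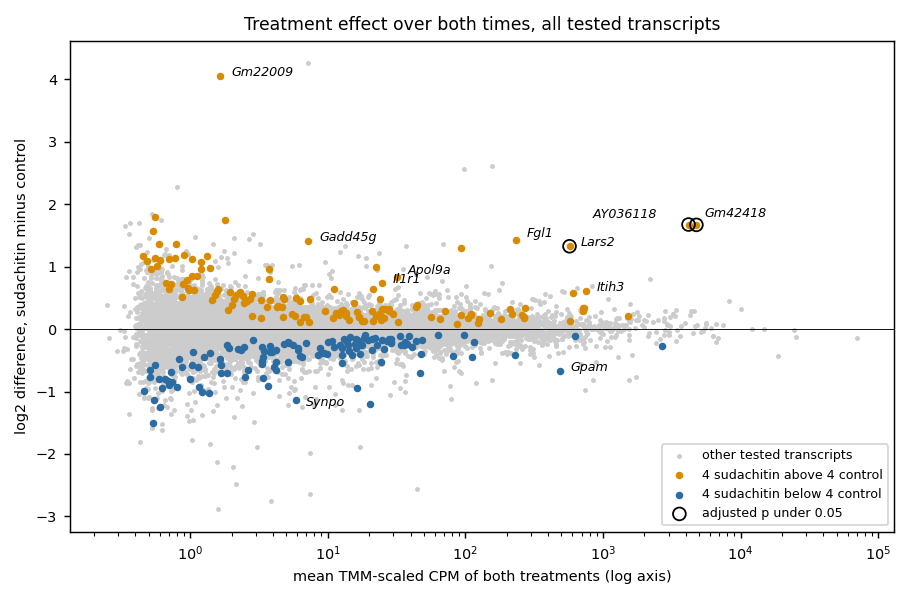
Log2 difference (sudachitin minus control, both times) of each of the 14506 tested transcripts against its mean expression in TMM-scaled CPM (log axis). Orange points are the 139 transcripts whose 4 sudachitin values all exceed the 4 control values, blue points the 126 with the reverse, and circles the 3 transcripts with an adjusted p under 0.05, which lie at high expression and above 0.

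Transcripts of a ribosomal DNA unit and the gene Lars2 were the ones that rose. Ribosomal DNA encodes the RNA core of the ribosome, which RNA polymerase I transcribes and which a poly(A)-selected library is meant to leave out. Gm42418 is a transcript of 1831 bases on chromosome 17 (GRCm38, 39846958 to 39848788, plus strand), and AY036118 is a transcript of 923 bases on the opposite strand whose 923 bases all lie inside it. CT010467.1, which GENCODE release 21 classes as ribosomal RNA, also overlaps Gm42418. The libraries carry no strand information, so reads of these 3 transcripts cannot be told apart and they are described as 1 signal. The first 120 bases that Gm42418 and AY036118 share are shown because they are the sequence behind the strongest difference; they are read from the GENCODE transcript (chr17:39847113-39847232, plus strand), with no part in capitals.
Gm42418: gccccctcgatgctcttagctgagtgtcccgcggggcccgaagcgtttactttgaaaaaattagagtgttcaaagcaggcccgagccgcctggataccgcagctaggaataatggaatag

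Gm42418 stood at 2164 and 2517 CPM in control ZT6 livers, 2384 and 2040 CPM in control ZT18 livers, 5806 and 7140 CPM in sudachitin ZT6 livers, and 7764 and 8407 CPM in sudachitin ZT18 livers. Every treated liver was thus above every control liver at both times. The mean was 2276 ± 215 CPM (SD, n = 4) in control and 7279 ± 1110 CPM (SD, n = 4) in sudachitin livers. Gm42418 rose by 1.67 on the log2 scale (SE 0.13, adjusted p = 0.0022), a fold of 3.18. AY036118 rose by the same amount, 1.67 (SE 0.13, adjusted p = 0.0022), from 1989 ± 197 to 6387 ± 982 CPM (SD, n = 4). CT010467.1, the third transcript of the unit, ranged from 40.4 to 75.2 CPM in control and from 118 to 146 CPM in sudachitin livers, a log2 difference of 1.29 (SE 0.20) that did not pass (adjusted p = 0.24). The difference of CT010467.1 was 1.55 without replicate 2 of control ZT6 and 1.17 without replicate 1 of control ZT18. Transcripts of the unit took 0.387% to 0.49% of the exon counts in control libraries and 1.11% to 1.61% in sudachitin libraries. How far the removal of ribosomal RNA differed between the libraries was not tested.

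Lars2 encodes the mitochondrial leucyl-tRNA synthetase, which charges the leucine tRNA used in mitochondrial protein synthesis (GRCm38 chromosome 9, 123366927 to 123462664, plus strand). Its level was 254 and 341 CPM in control ZT6, 388 and 318 CPM in control ZT18, 792 and 650 CPM in sudachitin ZT6, and 888 and 943 CPM in sudachitin ZT18 livers. The groups did not overlap, and Lars2 rose by 1.33 (SE 0.12, adjusted p = 0.0068), a fold of 2.51. Without replicate 1 of sudachitin ZT6 its adjusted p was 0.0522. Gm42418, AY036118 and Lars2 moved together, and when the ribosomal DNA transcripts and Lars2 were taken out of the table, 0 transcripts passed (632 had an unadjusted p under 0.05).

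Some other small RNAs, which are likewise not polyadenylated, were higher without overlap at very low levels. Rn7sk, the 7SK RNA made by RNA polymerase III that holds the elongation factor P-TEFb inactive, ranged from 0.654 to 1.12 CPM in control livers. In sudachitin livers it was 2.03 and 1.98 CPM at ZT6 and 2.25 and 4.82 CPM at ZT18, so that the groups did not overlap (log2 difference 1.75, SE 0.32, adjusted p = 0.582). Larp7, which encodes the protein that binds and stabilises 7SK RNA, lay on the other side: 10.8 and 10.2 CPM in control ZT6, 9.71 and 9.98 CPM in control ZT18, 8.42 and 7.57 CPM in sudachitin ZT6, and 6.76 and 8.40 CPM in sudachitin ZT18 livers. Its log2 difference was -0.38 (SE 0.11). Gm22009, a small Cajal body RNA by its GENCODE class, ranged from 0.141 to 0.223 CPM in control and from 1.54 to 7.11 CPM in sudachitin livers, with a log2 difference of 4.05 (SE 0.58, adjusted p = 0.198); its control values rest on a few counts each, and it passed when replicate 1 (4.43, edgeR adjusted p = 0.0168) or replicate 2 (3.27, adjusted p = 0.029) of sudachitin ZT18 was left out. Rpph1, the RNA of ribonuclease P, went from 0.64 ± 0.0907 to 1.42 ± 0.673 CPM (SD, n = 4) without overlap. Over all 121 tested transcripts of small RNA classes, 6 were higher without overlap (background 0.958%) and 0 lower. An unadjusted p under 0.05 was reached by 8 in the higher direction (background 2.14%) and 0 in the lower. Both higher counts include CT010467.1 of the ribosomal DNA unit above, so they are not separate from that signal. The median log2 difference of the 121 was 0.0189. Among 9 tested members of the list for ribosomal DNA and RNA quality the median was 1.29, with 6 higher without overlap (background 0.958%). The list includes the ribosomal DNA transcripts and Lars2 described above, so these values restate that signal. The nuclear RNAs Malat1 and Neat1 of that list had log2 differences of 0.61 (SE 0.38) and -0.04 (SE 0.31).

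The messenger RNAs of cytosolic ribosomal proteins had small differences of 1 sign. All 41 tested ribosomal protein genes had a log2 difference above 0, against 49.7% of all transcripts, but the largest was 0.18 and none had an unadjusted p under 0.05. Rpl10a, a protein of the large subunit, was 1 of the 2 members higher without overlap (background 0.958%; 0.10, SE 0.07), with 115 to 124 CPM in control and 125 to 134 CPM in sudachitin livers.

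Beyond these, few transcripts kept the treated and control livers apart, mostly by modest steps. How many would do so by chance was not tested. The 4 sudachitin values lay above the 4 control values in 139 transcripts (0.958% of those tested) and below them in 126 (0.869%), together 1.83%. In the deposited FPKM, which are not TMM-scaled, the split was 94 higher and 174 lower. Of the 265 in CPM, 79 higher and 69 lower transcripts had a symbol other than a predicted gene name and at least 5 CPM in the higher group. Among these, the median fold of the higher ones was 1.18, the median reduction of the lower ones 16.2%, 5 exceeded a fold of 2, and 2 were below a fold of 0.5. The named genes are taken from the 12 in each direction with the smallest p. Apart from AY036118 and Lars2 none passed the adjusted threshold in edgeR, and where no adjusted p is given below it was 0.996 or more. Outside the ribosomal DNA and RNA quality list, no member of any gene list passed in edgeR. Just outside these 12, with the next smallest p, were Orm1 (0.58, SE 0.15) and Mcc (0.39, SE 0.10) among the higher.

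**Figure D2:**
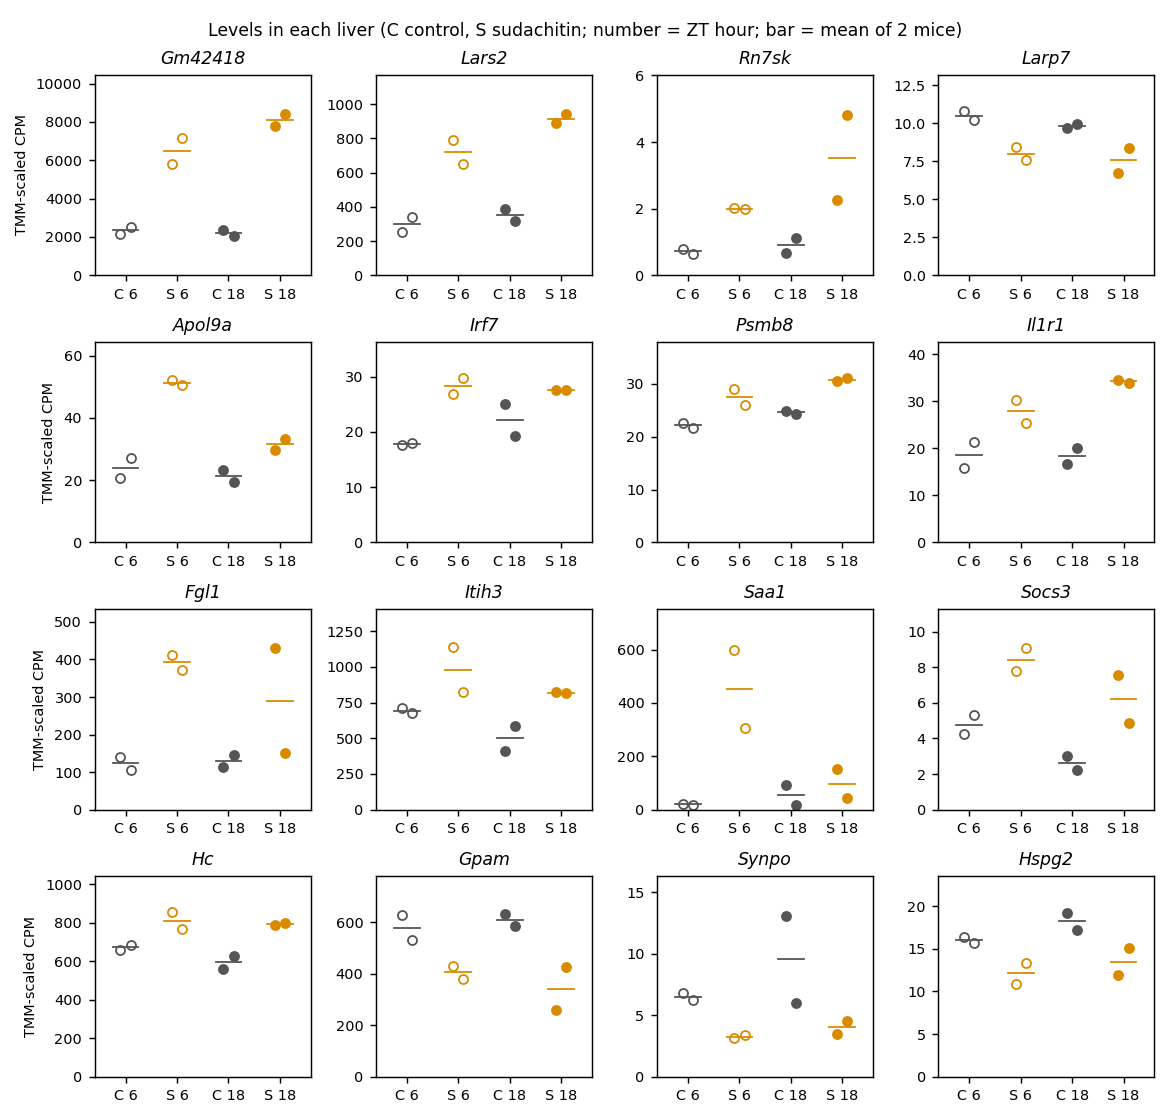
Level of 16 genes in each of the 8 livers, in TMM-scaled CPM on linear axes from 0, with grey for control and orange for sudachitin, open points for ZT6, filled points for ZT18 and a line at the mean of the 2 mice. Gm42418, Lars2 and Il1r1 separate the treatments at both times, Fgl1 has 1 treated liver (151 CPM) close to the controls, and Saa1 is highest in the 2 sudachitin ZT6 livers.

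Most interferon-induced genes had small differences above 0, and none passed in edgeR. Of 36 tested genes of the interferon response, 33 had a log2 difference above 0, 10 had an unadjusted p under 0.05 in the higher direction (background 2.14%) and 0 in the lower, and 3 were higher without overlap (background 0.958%). The median log2 difference was 0.22, and 0.173 to 0.297 as each library was left out, against -0.000828 over all transcripts. It was 0.339 at ZT6 and 0.117 at ZT18. Apol9a and Apol9b encode interferon-inducible apolipoprotein L proteins and are close copies, so reads may be split between them. Apol9a was 20.6 and 27.1 CPM in control ZT6, 23.2 and 19.3 CPM in control ZT18, 52.1 and 50.5 CPM in sudachitin ZT6, and 29.6 and 33.4 CPM in sudachitin ZT18 livers. The treated livers were all above the controls, by more at ZT6 (log2 1.10) than at ZT18 (0.56). Its log2 difference over both times was 0.84 (SE 0.14, adjusted p = 0.394), and DESeq2 called it (adjusted p = 2.17e-04). Apol9b was 53.6 and 72.5 CPM in control ZT6, 48.4 and 54.9 CPM in control ZT18, 112 and 105 CPM in sudachitin ZT6, and 66.8 and 75.9 CPM in sudachitin ZT18 livers. Its highest control exceeded its lowest treated value, so the groups overlapped, with a log2 difference of 0.62 (SE 0.12, adjusted p = 0.732; DESeq2 adjusted p = 0.00395).

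The sequences upstream of these copies are printed because both hold the pair of direct repeats that interferon-stimulated response elements are known for. They come from RefSeq (GRCm38.p6), run 5′ to 3′ in the direction of transcription up to the end of the motif, and capitals mark 2 overlapping matches, read on this strand as TTTC, any 2 bases and TTTC again, the reverse complement of GAAA, any 2 bases and GAAA. In the deposited transcript models 12 of these bases lie inside Apol9a and 12 inside Apol9b. Apol9a is at chr15:77411124-77411330, minus strand, and Apol9b at chr15:77728822-77729050, plus strand.
Apol9a: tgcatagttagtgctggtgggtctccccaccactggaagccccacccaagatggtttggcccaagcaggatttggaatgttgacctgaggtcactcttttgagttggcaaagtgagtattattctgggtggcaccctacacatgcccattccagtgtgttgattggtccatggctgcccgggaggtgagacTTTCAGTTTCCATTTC
Apol9b: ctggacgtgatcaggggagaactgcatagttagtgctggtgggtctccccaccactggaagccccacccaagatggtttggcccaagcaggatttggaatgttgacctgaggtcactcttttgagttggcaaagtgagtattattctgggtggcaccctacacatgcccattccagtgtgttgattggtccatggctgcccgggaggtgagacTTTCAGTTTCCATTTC

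The 2 windows were identical over the 228 of 228 bases compared, once shifted by 22 bases. The motif of GAAA, any 2 bases and GAAA, on either strand, occurred in the 250 bases upstream of 827 of 27025 RefSeq starts (3.06%), and in 16 of 27 interferon response genes that have an entry, including Stat2, Ifit1, Isg15 and Rsad2. Of the 8 higher genes named by rule that have an entry, Apol9a alone held it, and 0 of 9 lower genes did. A match is a run of letters and was not tested as a binding site.

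Irf7, the transcription factor that amplifies type I interferon production, was 17.7 and 18 CPM in control ZT6, 25.1 and 19.2 CPM in control ZT18, 26.9 and 29.7 CPM in sudachitin ZT6, and 27.5 and 27.5 CPM in sudachitin ZT18 livers. The groups did not overlap (log2 difference 0.48, SE 0.11), though the highest control lay close to the lowest treated liver. Psmb8, a catalytic subunit of the immunoproteasome, ranged from 21.7 to 24.9 CPM in control and from 25.9 to 31.1 CPM in sudachitin livers, a small difference (0.32, SE 0.07) with little spread. Psmb8 shares 186 exon bases with an opposite-strand transcript. Smaller differences with an unadjusted p under 0.05 were seen for Rtp4 (0.48, SE 0.12), an interferon-induced receptor transporter protein, and Irf9 (0.26, SE 0.08), the DNA-binding subunit of the complex that reads interferon response elements. The list for antigen presentation by MHC class I and II had 17 of 18 members above 0 and a median of 0.22, which fell to 0.104 without replicate 2 of sudachitin ZT6. Its median was 0.21 at ZT6 and 0.0156 at ZT18. Only Tap1 (0.22, SE 0.09), the peptide transporter, had an unadjusted p under 0.05. H2-Q7, a class I molecule, had 0.26 (SE 0.12).

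Most genes of the acute phase response had differences above 0, and none of them passed in edgeR. Of 29 tested members, 27 were above 0, 6 had an unadjusted p under 0.05 in the higher direction (background 2.14%) and 0 in the lower, and 2 (Itih3 and Orm1) were higher without overlap (background 0.958%). The median log2 difference was 0.27. It was 0.198 without replicate 1 of sudachitin ZT18 and 0.408 without replicate 2 of that group. Il1r1, the receptor through which interleukin-1 acts, was 15.8 and 21.3 CPM in control ZT6, 16.7 and 20.2 CPM in control ZT18, 30.2 and 25.4 CPM in sudachitin ZT6, and 34.6 and 33.9 CPM in sudachitin ZT18 livers. No treated liver reached down to the controls at either time. Its log2 difference was 0.74 (SE 0.13, adjusted p = 0.394), and DESeq2 called it (adjusted p = 0.00127). Il6ra, the receptor for interleukin-6, had 0.52 (SE 0.11), with 12.7 to 21 CPM in control and 18.8 to 28.7 CPM in sudachitin livers.

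Fgl1 encodes fibrinogen-like protein 1, also called hepassocin, a hepatocyte protein secreted in inflammation. It was 141 and 105 CPM in control ZT6, 112 and 144 CPM in control ZT18, 413 and 373 CPM in sudachitin ZT6, and 430 and 151 CPM in sudachitin ZT18 livers. In 3 of the 4 treated livers it was far above every control, while replicate 2 of sudachitin ZT18 was just above the highest control. The log2 difference was 1.43 (SE 0.29, adjusted p = 0.905). It was 1.70 without that library and 1.14 without replicate 1 of sudachitin ZT18. Itih3, which encodes a heavy chain of the inter-alpha-trypsin inhibitor, was 711 and 676 CPM in control ZT6, 412 and 586 CPM in control ZT18, 1137 and 822 CPM in sudachitin ZT6, and 822 and 817 CPM in sudachitin ZT18 livers. These groups did not overlap either (0.61, SE 0.14), and DESeq2 called Itih3 (adjusted p = 0.0202). Orm1, an orosomucoid, went from 482 ± 69.3 to 724 ± 119 CPM (SD, n = 4).

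The serum amyloid A genes, the most inducible acute phase genes of the mouse, were uneven. Saa1 was 21.9 and 18.3 CPM in control ZT6, 93.5 and 18.9 CPM in control ZT18, 599 and 306 CPM in sudachitin ZT6, and 153 and 42.5 CPM in sudachitin ZT18 livers. The treated ZT6 livers stood far above all controls, whereas at ZT18 the ranges overlapped. The log2 difference was 4.49 at ZT6 and 0.79 at ZT18, and the test of that difference between times did not pass (adjusted p = 0.998). Saa2, a near-identical neighbour, showed log2 differences of 5.08 and 0.24, and Orm2, a copy of Orm1, 3.29 and -0.85 (adjusted p of the difference 0.998 and 0.879). Leaving out replicate 1 of control ZT18, which had the highest control level of all 3 genes, the differences over both times were 3.63 for Saa1, 3.55 for Saa2 and 2.34 for Orm2, against 2.61, 2.57 and 1.14 with it. Leaving out replicate 2 of control ZT6 instead, they were 1.93, 1.55 and 0.41. The acute phase list without replicate 1 of control ZT18 had 29 of 29 members above 0 and 12 with an unadjusted p under 0.05, where the background was 2.48%.

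Socs3, the feedback inhibitor that STAT3 induces downstream of the interleukin-6 receptor, was 4.25 and 5.29 CPM in control ZT6, 3.01 and 2.25 CPM in control ZT18, 7.81 and 9.07 CPM in sudachitin ZT6, and 7.59 and 4.87 CPM in sudachitin ZT18 livers. At each time the treated livers exceeded the controls, but the lowest treated value fell short of the highest control (log2 difference 1.02, SE 0.20, adjusted p = 0.732; DESeq2 adjusted p = 0.0137). The 250 bases upstream of its RefSeq start (GRCm38.p6, chr11:117969367-117969616, minus strand) are shown because they hold a match to TTCNNNGAA, the palindrome that STAT factors are known to bind, in capitals, 154 bases before the start.
Socs3: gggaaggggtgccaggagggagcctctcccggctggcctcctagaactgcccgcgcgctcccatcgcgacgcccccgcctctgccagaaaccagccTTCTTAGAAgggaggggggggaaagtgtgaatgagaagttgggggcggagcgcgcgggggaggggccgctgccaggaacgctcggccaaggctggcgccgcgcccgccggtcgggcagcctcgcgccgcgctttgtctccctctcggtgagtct

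TTCNNNGAA occurred in 1905 of 27025 upstream windows of this length (7.05%) and in those of 7 of 25 acute phase genes with an entry (Apcs, Fga, Fgb, Itih4, Steap4, Hamp and Socs3). The share was similar in the interferon response list (7 of 27). It was 4 of 22 for complement and coagulation and 0 of 19 for fatty acid and triglyceride synthesis. Among named higher genes it was found in the window of Psmb8 alone, of 8, and in 0 of 9 named lower genes. It has 6 fixed letters and carries no information on binding.

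Complement and coagulation factors, which hepatocytes also secrete, differed little, with nearly all above 0. Of 31 tested genes, 29 were above 0, none passed, 9 had an unadjusted p under 0.05 in the higher direction (background 2.14%) and 0 in the lower, and 3, C1ra (0.24, SE 0.10) and Cpb2 (0.19, SE 0.08) among them, were higher without overlap (background 0.958%), with a median of 0.15. Hc, which encodes complement component C5, was 659 and 685 CPM in control ZT6, 562 and 627 CPM in control ZT18, 855 and 765 CPM in sudachitin ZT6, and 791 and 799 CPM in sudachitin ZT18 livers. All treated livers were above all controls (0.35, SE 0.08). The gap between the nearest values, 685 and 765 CPM, was narrower than the range within either treatment. C9, which forms the pore of the membrane attack complex, had 0.53 (SE 0.15). C8a, another component of the pore, had 0.60 (SE 0.24), and 0.36 without replicate 1 of control ZT18.

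Most markers of Kupffer cells had differences above 0 as well, and none passed in edgeR. In bulk RNA, fewer cells of a type and less RNA per cell cannot be told apart. Of 19 tested markers 14 were above 0, with a median of 0.26. In the higher direction 5 had an unadjusted p under 0.05 (background 2.14%). In the lower direction 1 did (Ccr2, a receptor of recruited monocytes, at under 1 CPM in every liver). Without overlap, 0 were higher (background 0.958%) and 1 was lower (background 0.869%). The median was 0.61 at ZT6 and -0.07 at ZT18. Marco, a scavenger receptor, was 1.01 and 1.18 CPM in control ZT6, 2.51 and 2.32 CPM in control ZT18, 2.27 and 3.68 CPM in sudachitin ZT6, and 6.28 and 2.23 CPM in sudachitin ZT18 livers, so the treatments overlapped at ZT18 (1.08, SE 0.34). Clec4f, a lectin found on mouse Kupffer cells, had 0.42 (SE 0.16), Timd4, which binds dying cells, 0.70 (SE 0.24), and Cd163, the haemoglobin scavenger receptor, 0.64 (SE 0.23). The markers summed to 198.5 to 357.2 CPM in control and 244.2 to 389.3 CPM in sudachitin livers, and the highest control sum was that of replicate 1 of control ZT18. With that library left out, 18 of 19 markers were above 0, 13 had an unadjusted p under 0.05 in the higher direction (background 2.48%), 6 were higher without overlap (background 1.96%) and the median was 0.58. In that reduced set 1 marker was lower without overlap (background 1.25%). The median was 0.142 without replicate 1 of control ZT6 and 0.168 without replicate 2 of control ZT18. It was 0.0708 without replicate 2 of sudachitin ZT6, where Cd163 had 0.41 and Clec4f 0.26. Without replicate 1 of control ZT18 the interferon list had 34 of 36 above 0 and 17 with an unadjusted p under 0.05. The part of macrophage content in the interferon, acute phase and complement results was not tested.

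Other blood cells left few traces. Of 10 neutrophil markers only Csf3r, the receptor for granulocyte colony-stimulating factor, was tested, with 1.01 to 1.69 CPM in control and 1.60 to 1.88 CPM in sudachitin livers (0.51, SE 0.22). Of 8 tested lymphocyte markers 6 were above 0, with Jchain, the joining chain of secreted antibodies, at 1.13 (SE 0.42) and Igkc, an antibody light chain, at 0.70 (SE 0.44). These were 0.69 and 0.22 without replicate 1 of sudachitin ZT18. Ncr1, a receptor of natural killer cells, was at 0 in all 8 libraries. The plot of summed marker levels sets the RNA quality list beside the cell type lists.

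**Figure D3:**
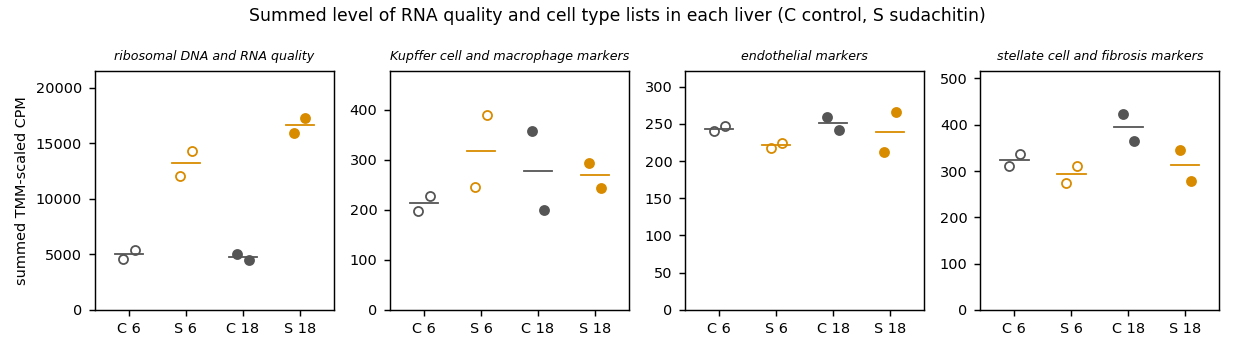
Summed TMM-scaled CPM of the tested members of 4 lists in each of the 8 livers, on linear axes from 0, with grey for control, orange for sudachitin, open points for ZT6, filled points for ZT18 and a line at the mean of the 2 mice. The ribosomal DNA and RNA quality list separates the treatments (4466 to 5428 against 12070 to 17320 CPM), while the Kupffer cell, endothelial and stellate cell sums overlap.

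Among the other named higher genes were a pair of regulators. Rnd1, a small GTPase that loosens the actin cytoskeleton, was 10.2 and 9.02 CPM in control ZT6, 8.70 and 6.89 CPM in control ZT18, 14.8 and 11.9 CPM in sudachitin ZT6, and 14.4 and 12.9 CPM in sudachitin ZT18 livers (0.64, SE 0.13). Zfp36l2, an RNA-binding protein that speeds the decay of AU-rich messages, ranged from 35.8 to 40.7 CPM in control and from 44.1 to 54.2 CPM in sudachitin livers (0.36, SE 0.09). In both genes all treated livers were above all controls.

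Most lipid synthesis genes had differences below 0, and none of them passed in edgeR. Of 24 tested genes for fatty acid and triglyceride synthesis, 21 were below 0, 5 had an unadjusted p under 0.05 in the lower direction (background 2.27%) and 0 in the higher, 1 was lower without overlap (background 0.869%), and the median log2 difference was -0.35. It was -0.327 without replicate 1 of control ZT18, with 22 of 24 below 0, and -0.207 without replicate 1 of control ZT6. Gpam encodes the mitochondrial acyltransferase that begins triglyceride synthesis. It was 627 and 532 CPM in control ZT6, 632 and 587 CPM in control ZT18, 431 and 381 CPM in sudachitin ZT6, and 259 and 426 CPM in sudachitin ZT18 livers. All treated livers were below all controls (-0.67, SE 0.16), and DESeq2 called Gpam lower (adjusted p = 0.0202). Fasn, the fatty acid synthase, was 1302 and 1612 CPM in control ZT6, 2549 and 3540 CPM in control ZT18, 1393 and 857 CPM in sudachitin ZT6, and 692 and 2014 CPM in sudachitin ZT18 livers. Its treatments overlapped at ZT6 and did not at ZT18, and its spread was wide (-0.77, SE 0.33). Acaca, the acetyl-CoA carboxylase upstream of it, had -0.38 (SE 0.16), Acly, which supplies cytosolic acetyl-CoA, -0.56 (SE 0.25), and Elovl6, which elongates palmitate, -0.58 (SE 0.22). Without replicate 1 of sudachitin ZT18 Fasn had -0.46 and Acaca -0.24, and without replicate 2 of control ZT18 Elovl6 had -0.37.

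Lists next to lipid synthesis leaned the same way by smaller amounts. For lipid droplets and lipid uptake, 20 of 22 genes had a difference below 0 and the median was -0.25. An unadjusted p under 0.05 in the lower direction was reached by 2 (background 2.27%). G0s2, the inhibitor of adipose triglyceride lipase, was 155 and 136 CPM in control ZT6, 283 and 327 CPM in control ZT18, 89.6 and 111 CPM in sudachitin ZT6, and 230 and 276 CPM in sudachitin ZT18 livers. Within each time the treated livers were below the controls, while over both times the day-night difference made the values overlap (-0.40, SE 0.12). Cidec, which enlarges lipid droplets, had -1.89 (SE 0.75), but 88.7 CPM in replicate 1 of control ZT18 against 2.68 to 9.20 CPM in the other controls, and -0.66 without that library. The list median without it was -0.08, with 16 of 22 genes below 0, and -0.0964 without replicate 2 of sudachitin ZT18. Cholesterol synthesis had 22 of 25 genes below 0 and a median of -0.17, with Acat2 (-0.32, SE 0.14), which joins acetyl-CoA units, the only member at an unadjusted p under 0.05, and Tm7sf2, a sterol reductase, at 0.25 (SE 0.12). Without replicate 1 of control ZT6 its median was 0.04 and Acat2 had -0.19. Fatty acid oxidation and ketogenesis had 29 of 32 genes below 0 and a median of -0.13. Of these, 4 had an unadjusted p under 0.05 (background 2.27% lower). Acaa1b, a peroxisomal thiolase, had -0.42 (SE 0.15), and Acot2, a mitochondrial thioesterase, -1.22 (SE 0.48). Leaving out replicate 1 of control ZT18, this list had 20 of 32 genes below 0, a median of -0.02, Acot2 at -0.47 and Acaa1b at -0.23.

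**Figure D4:**
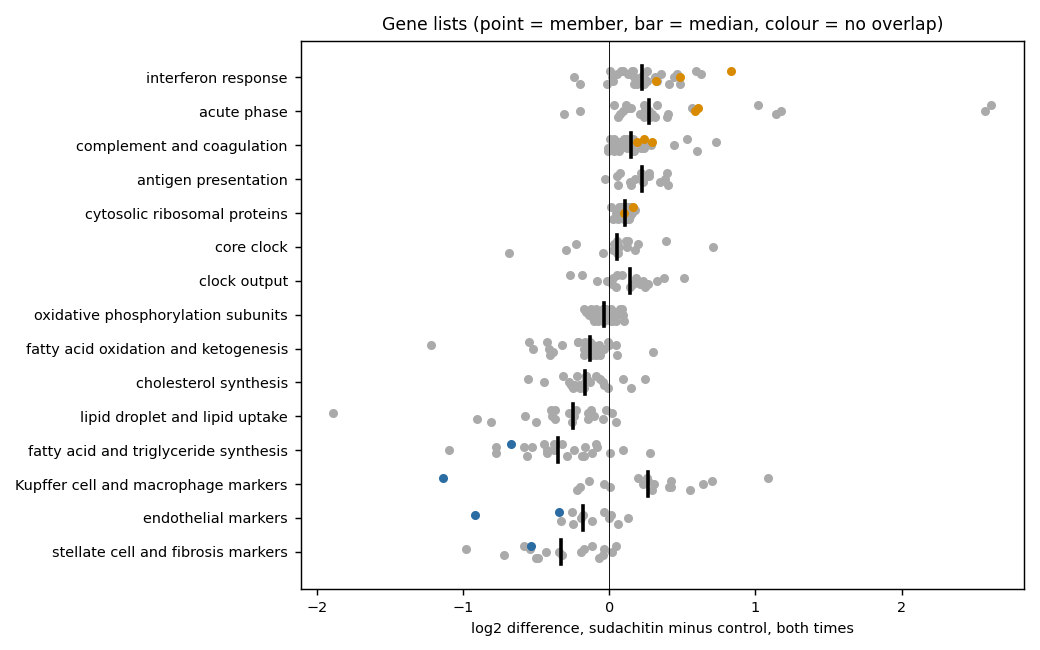
Log2 difference (sudachitin minus control, both times) of every tested member of 15 gene lists, 1 point per gene, with a bar at the list's median; orange and blue points are genes whose 4 sudachitin values lie all above or all below the 4 control values. Interferon, acute phase and complement members sit mainly right of 0 (medians 0.22, 0.27 and 0.15), lipid synthesis and stellate cell members mainly left of it (-0.35 and -0.33).

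The other named lower genes had varied roles, and none passed in edgeR. Synpo encodes synaptopodin, an actin-bundling protein; it was 6.84 and 6.21 CPM in control ZT6, 13.1 and 5.97 CPM in control ZT18, 3.13 and 3.41 CPM in sudachitin ZT6, and 3.50 and 4.52 CPM in sudachitin ZT18 livers. The groups did not overlap (-1.13, SE 0.24), DESeq2 called it (adjusted p = 0.018), and without replicate 1 of control ZT18 the difference was -0.82. Hspg2, which encodes the basement membrane proteoglycan perlecan, was 16.3 and 15.7 CPM in control ZT6, 19.2 and 17.2 CPM in control ZT18, 10.9 and 13.4 CPM in sudachitin ZT6, and 11.9 and 15.1 CPM in sudachitin ZT18 livers (-0.42, SE 0.11). Egfl7, secreted by endothelial cells, ranged from 10.6 to 12.5 CPM in control and from 8.12 to 8.75 CPM in sudachitin livers (-0.40, SE 0.10), a narrow band in both treatments. Tinagl1, a matricellular protein, had -0.41 (SE 0.11), Itga8, the integrin alpha 8 chain found on stellate cells, -0.65 (SE 0.18), and Pdlim1, a PDZ and LIM domain protein of actin fibres, -0.34 (SE 0.09). Iffo2, an intermediate filament family member, had -0.40 (SE 0.12).

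Dusp6 encodes the phosphatase that switches off ERK and is itself induced by ERK signals. It was 42.5 and 55.1 CPM in control ZT6, 70.9 and 62.7 CPM in control ZT18, 42.4 and 32.6 CPM in sudachitin ZT6, and 25.4 and 40.4 CPM in sudachitin ZT18 livers. The highest treated and the lowest control value nearly touched at ZT6, while at ZT18 the gap was wide (-0.70, SE 0.19, over both times). Ccnd1, which encodes cyclin D1, was also lower without overlap, at 12.4 to 39.1 CPM in control and 9.78 to 12.3 CPM in sudachitin livers (-0.94, SE 0.32). The nearest values of the treatments nearly touched, and the difference was -0.47 without replicate 1 of control ZT18. Myc, a driver of growth, had 1.25 (SE 0.41) with overlap, and 0.80 without replicate 1 of sudachitin ZT18. The cell cycle list had 20 of 28 members below 0 and a median of -0.19, and without replicate 1 of control ZT18 it had 20 of 28 above 0 and a median of 0.20.

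Most endothelial and stellate cell markers had differences below 0, and none passed in edgeR. Of 13 endothelial markers 10 were below 0, with a median of -0.18, 3 had an unadjusted p under 0.05 in the lower direction (background 2.27%) and 2 were lower without overlap (background 0.869%). Oit3, a marker of liver sinusoidal endothelium, was 16.6 and 14.4 CPM in control ZT6, 17.7 and 14.8 CPM in control ZT18, 11.7 and 12.3 CPM in sudachitin ZT6, and 12.9 and 13.2 CPM in sudachitin ZT18 livers, with no overlap (-0.34, SE 0.10). Lyve1, the hyaluronan receptor of the same cells, had -0.92 (SE 0.31), with its highest value, 8.20 CPM, in replicate 1 of control ZT18, and -0.55 without that library. Of 18 stellate cell and fibrosis markers 16 were below 0, with a median of -0.33. Col4a1, the alpha 1 chain of basement membrane collagen, ranged from 24.2 to 39.2 CPM in control and from 16.7 to 21.5 CPM in sudachitin livers (-0.54, SE 0.16), and had -0.33 without replicate 1 of control ZT18. Acta2, smooth muscle actin, had -0.98 (SE 0.36), and -0.65 without replicate 2 of control ZT18. With replicate 1 of control ZT18 left out the medians were -0.10 (endothelial) and -0.22 (stellate), with 10 of 13 and 15 of 18 markers below 0. The endothelial median was -0.075 without replicate 1 of sudachitin ZT18. The endothelial sums were 241.0 to 260.0 CPM in control and 212.2 to 265.5 CPM in sudachitin livers, and the stellate sums 310.9 to 423.4 and 274.7 to 345.4 CPM. The part of cell composition in these values was not tested.

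No core clock gene separated by treatment, but few transcripts of any kind did. With time in the model, 0 of 20 tested genes had an unadjusted p under 0.05 (background 4.41%) and 0 were without overlap (background 1.83%). In a list of 20 genes, counts of 0 are close to these shares. The log2 differences ran from -0.69 (Npas2, the paralogue of CLOCK) to 0.71 (Ciart, a repressor of the clock), with a median of 0.06. Of the 20 genes 16 were above 0, against 49.7% of all transcripts, and 9 were without replicate 2 of sudachitin ZT18. Arntl, which encodes BMAL1, was 11.0 and 13.7 CPM in control ZT6, 19.3 and 18 CPM in control ZT18, 13.1 and 13.0 CPM in sudachitin ZT6, and 15.4 and 21.3 CPM in sudachitin ZT18 livers (0.03, SE 0.12). Its values differed more by time than by treatment. Nr1d1, which encodes REV-ERB alpha, had 0.05 (SE 0.15), Cry1 0.07 (SE 0.13) and Per2 -0.23 (SE 0.27), the last 2 being repressors of the clock. The smallest p of the list belonged to Rora, which encodes the ROR alpha receptor (0.39, SE 0.21), and Nr1d2, which encodes REV-ERB beta (0.20, SE 0.11). Rora was 2.66 and 3.33 CPM in control ZT6, 3.29 and 2.81 CPM in control ZT18, 5.59 and 4.02 CPM in sudachitin ZT6, and 2.79 and 3.76 CPM in sudachitin ZT18 livers, so only the ZT6 groups were apart, and its difference was 0.23 without replicate 1 of sudachitin ZT6. Clock output genes had 15 of 19 members above 0 and a median of 0.14. Among them were Upp2, a uridine phosphorylase, at 0.51 (SE 0.22) and Leo1, a subunit of the PAF1 elongation complex, at -0.18 (SE 0.08). Of 16 targets of REV-ERB and ROR 9 were below 0, with Cidec (above) and Avpr1a, a vasopressin receptor (0.68, SE 0.30), at the smallest p. Leaving out replicate 1 of control ZT18, Nr1d2 had 0.12, Upp2 0.33 and Avpr1a 0.40.

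The pathways of energy metabolism named in the series title gave small differences, and no member passed. Oxidative phosphorylation subunits had a median of -0.04 over 42 genes, all between -0.17 and 0.10, led by the complex I subunits Ndufa10 (-0.17, SE 0.07) and Ndufs1 (-0.16, SE 0.08). Mitochondrially encoded transcripts had a median of 0.01 over 15, led by mt-Nd4l (0.52, SE 0.27) and mt-Nd6 (-0.23, SE 0.15). Of 27 genes for PGC1 coactivators, sirtuins and NAD, 14 were above 0. Sirt5, a mitochondrial desuccinylase, was lower without overlap, at 12.4 to 15.2 CPM in control and 9.96 to 12.0 CPM in sudachitin livers (-0.25, SE 0.10), and Nnmt, which methylates nicotinamide, had 0.57 (SE 0.25). Glycolysis, gluconeogenesis and glycogen had 20 of 25 genes below 0 (median -0.11), with Eno1, enolase, at -0.30 (SE 0.10) and Ppp1r3g, a glycogen-targeting subunit, at 1.47 (SE 0.74) from under 1 CPM in every control. Among 22 genes of insulin signalling and feeding, Enho, which encodes the peptide adropin, was 6.48 and 10.3 CPM in control ZT6, 2.29 and 6.18 CPM in control ZT18, 17.9 and 11.3 CPM in sudachitin ZT6, and 12.0 and 9.81 CPM in sudachitin ZT18 livers (1.08, SE 0.30). It was higher within each time, with overlap across times. Gadd45g, a stress-inducible gene, was 3.73 to 4.22 CPM in control and 4.43, 13.4, 18.8 and 5.46 CPM in sudachitin livers, just clear of the controls in 2 of the 4 (1.40, SE 0.42), and had 0.91 without replicate 1 of sudachitin ZT18. Inhbe, which encodes the activin E subunit made by hepatocytes, was lower without overlap (-0.44, SE 0.16). Nnmt had 0.37 and Ndufs1 -0.10 without replicate 1 of control ZT18, and Ppp1r3g had 0.84 without replicate 1 of sudachitin ZT18.

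Bile acid genes had 13 of 23 members above 0 and none at an unadjusted p under 0.05; Cyp7a1, the rate-limiting enzyme of bile acid synthesis, had 0.50 (SE 0.31) and Cyp27a1, of the alternative route, 0.22 (SE 0.14). For lipoproteins, 12 of 23 were above 0, with Lipg, endothelial lipase, at -0.41 (SE 0.13) and Apom at 0.29 (SE 0.10). The urea cycle and amino acid list had 22 of 35 above 0, led by Cth, which makes cysteine (0.33, SE 0.13), and Uroc1, of histidine breakdown (-0.19, SE 0.09). Iron handling had 12 of 20 below 0, led by the transferrin receptors Tfrc (-0.61, SE 0.32) and Tfr2 (0.17, SE 0.10). Among 28 nuclear receptors, Hnf4a, the hepatocyte master regulator (0.24, SE 0.10), and Nr3c1, the glucocorticoid receptor (0.22, SE 0.10), had the smallest p. Of 16 glucocorticoid-responsive genes 13 were above 0, with Zbtb16 at 1.24 (SE 0.35) and Gadd45g at the values above. Pericentral genes were led by Slc1a2 (0.22, SE 0.10), a glutamate transporter, and Glul, glutamine synthetase (-0.19, SE 0.09), and periportal genes by Pck1 (0.48, SE 0.28) and Sds (0.40, SE 0.24), both of gluconeogenesis from amino acids. Their medians were 0.04 over 19 and 0.09 over 14 genes. Pck1 had 0.12 and Sds 0.19 without replicate 1 of sudachitin ZT18. Leaving out replicate 1 of control ZT18, Cyp7a1 had 0.26, Cyp27a1 0.08, Tfrc -0.27, Tfr2 0.105 and Glul -0.12.

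Stress and detoxification lists were mixed. Nfe2l2, which encodes NRF2, was 59.9 and 64.4 CPM in control ZT6, 105 and 105 CPM in control ZT18, 56.1 and 55.2 CPM in sudachitin ZT6, and 64.1 and 71.1 CPM in sudachitin ZT18 livers (-0.40, SE 0.11). At ZT18 both treated livers were well below both controls. Its list had 21 of 27 members below 0 and a median of -0.14, with Gsta4 at -0.40 (SE 0.18), but 19 of 27 above 0 and a median of 0.08 without replicate 1 of control ZT18. Bag3, a co-chaperone of HSP70, had -0.36 (SE 0.09) and Rbm3, a cold-induced RNA-binding protein, -0.33 (SE 0.13), in a list with a median of -0.01 over 24. For the unfolded protein and integrated stress responses, Atf3 had -1.02 (SE 0.41) and Chac1 1.03 (SE 0.52), with 19 of 27 genes above 0. Of 11 aryl hydrocarbon receptor targets, Cyp1a2 had 0.47 (SE 0.24), while Gsta1 had -2.48 (SE 1.33) with 14.1 CPM in replicate 1 of control ZT18 and at most 1.09 CPM elsewhere, and 0.17 without that library. Cytochrome P450 enzymes of families 2 and 3 had 16 of 31 above 0, led by Cyp2c69 (1.16, SE 0.41, no overlap, under 1 CPM) and Cyp3a11, the main inducible drug-metabolising enzyme (-0.98, SE 0.37). Phase 2 enzymes had 20 of 32 above 0, led by Gstt3 (-0.49, SE 0.14) and Ugt2b5 (0.22, SE 0.09), and esterases and flavin monooxygenases 8 of 16, led by Ces1b (0.32, SE 0.10) and Ces1e (-0.24, SE 0.10). Several of these rest partly on replicate 1 of control ZT18, without which Gsta4 had -0.20, Atf3 -0.62, Cyp1a2 0.28 and Cyp3a11 -0.48.

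Sex-biased genes depended on 1 library. Male-biased genes had 20 of 22 members above 0 and a median of 0.47, led by Moxd1 (4.26, SE 1.32) and C8a, and 12 of 22 above 0 with a median of 0.05 without replicate 1 of control ZT18. Moxd1 varied from 0 to 35 CPM among the sudachitin livers alone. The male-biased median was 0.269 without replicate 2 of sudachitin ZT18. Cyp2a4, a female-biased enzyme, had -2.64 (SE 1.17) with 50.4 CPM in replicate 1 of control ZT18 against at most 2.19 CPM elsewhere, and 0.21 without it. In the growth hormone and IGF1 axis 10 of 15 genes were above 0, with Cish, a feedback inhibitor, at 1.33 (SE 0.89) and Jak2, the receptor's kinase, at 0.15 (SE 0.08). Markers of bile ducts (Krt7 1.07, SE 0.56; Pkhd1 -0.36, SE 0.20), of red cells (Hbb-bt -0.30, SE 0.27; Hba-a1 -0.18, SE 0.24) and of fat and pancreas (Cfd -1.13, SE 0.60; Cela2a 0.53, SE 0.35) had no member at an unadjusted p under 0.05. Without replicate 1 of control ZT18, Pkhd1 had -0.23, Hbb-bt -0.01 and Cela2a 0.30, and without replicate 1 of sudachitin ZT18 Cish had 0.61 and Cfd -2.14.

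The treatment effect was then compared between the 2 times that the pooled comparison averages. The test of the difference between the effects at ZT18 and ZT6 called 0 transcripts by edgeR (0%) and 12 by DESeq2, and 548 had an unadjusted edgeR p under 0.05 (3.78%). For the 24 named genes without overlap the smallest unadjusted p of this test was 0.0409, for Apol9a, whose difference was larger at ZT6. Gm42418 had 1.47 at ZT6 and 1.87 at ZT18, Lars2 1.28 and 1.38, Il1r1 0.58 and 0.90, and Gpam -0.51 and -0.83. Of the 14506 tested transcripts, 371 had the 2 treated livers above the 2 controls at each time, and 376 had them below at each time. These counts hold whether or not the 4 and 4 values overlapped. How many transcripts would do so by chance was not tested. Each such comparison within a time rests on 2 mice against 2.

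**Figure D5:**
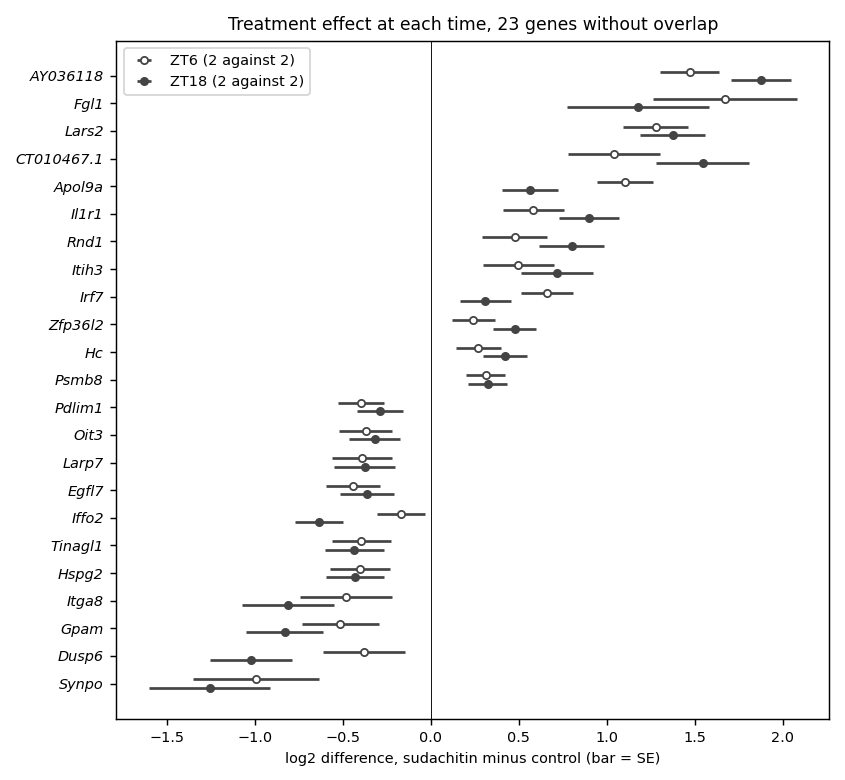
Log2 difference (sudachitin minus control) at ZT6 (open points) and at ZT18 (filled points), with bars of 1 SE from the fit of 4 group means, for 23 of the 24 named genes without overlap between treatments. The choice of genes without overlap fixes the same sign at both times, so the plot shows sizes only, with AY036118 and Fgl1 at the top and Synpo at the bottom.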

How the data were processed

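RNA from 8 livers was read as poly(A)-selected, non-stranded libraries of 150-base pairs from 2 µg of RNA with an integrity number above 9, per the labels' protocols. Trimmomatic 0.39, STAR 2.7.2a and HOMER (version not given) are named in the submitters' processing notes, without their roles. The authors deposited estimated counts in exons, in steps of 0.5 and not normalized, and FPKM made from the same counts and the library totals, per the file headers (mouse GRCm38, 1 transcript per gene model). How reads with several positions were counted is not given in the sources used here. Estimated counts were rounded with 0.5 up and tested in R 4.3.3 with edgeR 4.0.16 (TMM factors 0.966 to 1.016, default filter by group, quasi-likelihood F test, design time plus treatment, 2-sided, Benjamini-Hochberg over 14506 transcripts, threshold 0.05). The SE is the size of the log2 difference divided by the square root of F. The test was checked on simulated counts. Samples were grouped by their titles, which name separate mice.

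Named genes are those that passed, the 12 higher and 12 lower with the smallest p among symbols without overlap and at least 5 CPM in the higher group (predicted gene names left out), up to 2 members of each of 46 lists by p, and the core clock. The members and lists were chosen with earlier results of these data known. Rn7sk, Gm22009, Il6ra, Cd163, Fasn, Acaca, Saa1, Saa2, Orm2, Arntl, Per2, Cry1, Nr1d1, and further list members given with a single value or range, were named after their values were seen. For 113 symbols with several transcripts, that of highest mean count was taken. Exon overlaps came from GENCODE release 21: 34 named genes overlap an opposite-strand exon, among them Psmb8, Hc, Zfp36l2, Itga8, Ccnd1, Il6ra, Nr1d1, Arntl and Col4a1, and their counts cannot be told apart from their partners. Near-identical copies (Apol9a and Apol9b, Saa1 and Saa2, Orm1 and Orm2) are uncertain in the same way. Upstream sequences came from RefSeq (GRCm38.p6). Alternatives were DESeq2 1.42.0, limma 3.58.1 (voom with sample weights, and log2 of the deposited FPKM plus 0.1 or 1), other scalings and filters, no time term, 4 group means, a replicate block, and each library left out. A few genes that these rules name are not reported here.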

Additional observations from a re-analysis of the deposited data

Results flagged for a closer look

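Among 46 genes, each treatment's 4 livers, which span both times, were examined for a value far from the other 3 (Dixon's 95% criterion); 92 sets were examined and 10 were marked. Chance marks about 1 in 20 sets, and a set that mixes 2 times can be marked by a day-night difference. Replicate 1 of control ZT18 was the far value in 5 of them. It had 13.1 CPM of Synpo against 5.97 to 6.84 in the other controls, 88.7 CPM of Cidec against 2.68 to 9.20, and 8.20 CPM of Lyve1 against 3.45 to 3.86. It also had 93.5 CPM of Saa1 against 18.3 to 21.9 and 26.7 CPM of Orm2 against 3.92 to 5.76. Among sudachitin livers, replicate 2 of ZT18 had 4.82 CPM of Rn7sk against 1.98 to 2.25, 7.11 CPM of Gm22009 against 1.54 to 2.18, and 16.7 CPM of Col4a1 against 20.9 to 21.5. Replicate 1 of sudachitin ZT18 had 21.1 CPM of Cidec against 1.35 to 4.23. Itih3 was 1140 CPM in replicate 1 of sudachitin ZT6 against 817 to 822.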

How the results depend on the processing

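The 3 higher and 0 lower calls were the same in number with other scalings, with the filter at 5 CPM, with limma on counts or FPKM, without the time term and with 4 group means. DESeq2 gave 11 higher and 2 lower, 12 with a different effect at the 2 times, and 9 list members. With no filter on low counts edgeR gave 150 higher and 159 lower, 259 with a different effect at the 2 times, and 109 list members; the cause was not tested. Without the ribosomal DNA transcripts and Lars2, an alternative chosen after seeing the data, 0 transcripts and 0 list members passed. Leaving out each library gave 2 to 5 higher, 0 to 1 lower (Aacs, without replicate 2 of sudachitin ZT18), 0 to 13 with a different effect at the 2 times (13 without replicate 2 of control ZT18) and 2 to 4 list members. The higher count without overlap was 139, 272 with no filter, 87 with at least 5 CPM in 2 libraries, 94 in deposited FPKM and 272 to 374 when a library was left out; the lower count was 126, 80 at 5 CPM, 174 in deposited FPKM and 188 to 358 when a library was left out, where 3 against 4 values are compared. The replicate number as a block gave 3 higher and 0 lower. Deviations of same-numbered mice correlated weakly between groups (r from -0.204 to 0.281, the highest between control ZT18 and sudachitin ZT18). Each r rests on the difference between the 2 mice of each group, so it cannot decide whether the numbers pair mice.

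Directions of named genes turned in few cases, while several list medians changed sign when 1 library was left out. When a library was left out, Gsta1 ran from -3.81 to 0.17, Cyp2a4 from -3.16 to 0.21 and Hba-a1 from -0.32 to 0.11, each highest without replicate 1 of control ZT18. The cholesterol synthesis median ran from -0.295 to 0.0398 (without replicate 1 of control ZT6) and the core clock median from -0.0025 (without replicate 2 of sudachitin ZT18) to 0.122. Without replicate 1 of control ZT18 several other list medians turned, though most kept their sign. Cell cycle went from -0.185 to 0.2, NRF2 and antioxidant from -0.139 to 0.0781 and female-biased genes from -0.276 to 0.0824. Erythroid markers went from -0.146 to 0.111, and adipocyte and pancreas markers from 0.215 to -0.0298. Clock genes near 0 changed sign: Cry1 was -0.066 without the time term and ran from -0.034 to 0.146 when a library was left out. Nr1d1 was -0.036 with voom, -0.097 without the time term and -0.0079 with log2(FPKM + 1), and ran from -0.096 to 0.171. Arntl was -0.0020 with voom, -0.0119 with log2(FPKM + 0.1) and -0.0113 with log2(FPKM + 1), and ran from -0.068 to 0.129. The interferon and stellate cell medians were 0.112 and -0.14 with log2(FPKM + 1), a scale that compresses low values. With 4 mice a treatment, the 3 transcripts that the test called differed by more than the median 1.18-fold of the higher genes without overlap. Whether differences of that size reflect the treatment was not tested.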

Other observations

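Components of the basement membrane, a list written after Hspg2 and Col4a1 had been seen among the lower genes, are described by count only. Of 24 genes, 22 were tested, 16 were below 0 and 6 above, 5 had an unadjusted p under 0.05 in the lower direction (2.27% of all transcripts) and 0 in the higher, 3 were lower without overlap (0.869% of all transcripts), and the median log2 difference was -0.19. Nid1, which encodes nidogen 1, the linker between laminin and type IV collagen, was 11.4 and 11.4 CPM in control ZT6, 25.8 and 12.5 CPM in control ZT18, 9.40 and 10.6 CPM in sudachitin ZT6, and 11.1 and 9.98 CPM in sudachitin ZT18 livers (-0.54, SE 0.23). Every treated liver was below every control, by a small margin outside replicate 1 of control ZT18. Col4a2, the partner chain of Col4a1, had -0.32 (SE 0.13), and Lamb3, a laminin chain, -0.68 (SE 0.22). Col18a1, by far the most abundant member at 739 to 1073 CPM, had 0.01 (SE 0.09), and Agrn 0.01 (SE 0.13). Without replicate 1 of control ZT18, 19 of the 22 were below 0, 3 had an unadjusted p under 0.05 in the lower direction (1.69% of all transcripts), 4 were lower without overlap (1.25%) and the median was -0.17.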
